A study of Mus musculus with 10 samples.

Results

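Hedgehog signaling from Sertoli cells to the interstitium of the fetal testis was followed through 7 genes: the ligand Dhh, the receptor Ptch1, the transducer Smo, the transcription factors Gli1, Gli2 and Gli3, and the ligand-binding inhibitor Hhip. They were taken by gene symbol from a table of raw counts with 24470 gene entries, and each of the 7 symbols was found in 1 entry. Testes of C57BL/6 mouse embryos were collected at embryonic stage E12.5 as gonads still joined to the mesonephros, the neighbouring embryonic kidney tissue. From each of 5 embryos, 1 gonad was kept in culture medium with GPI (CP 316819, which inhibits the breakdown of glycogen by glycogen phosphorylase) at 75 µM and the other with the vehicle DMSO, both for 48 h. The mesonephros was then removed and RNA of the whole gonad was sequenced, giving 5 vehicle libraries of 10203679 to 15590223 counts (median 11114376) and 5 GPI libraries of 11025409 to 15635322 (median 11691690). Libraries are named by the mouse, 1 to 5, from which both gonads came.

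In the fetal testis, Sertoli cells inside the cords secrete desert hedgehog, the product of Dhh, which reaches cells outside the cords. There it binds patched 1, the product of Ptch1, and so releases smoothened (Smo) to act on the GLI transcription factors at the primary cilium. Gli1, Ptch1 and Hhip are themselves switched on by the pathway, and fetal Leydig cells, the steroid-producing cells of the interstitium, need this signal to differentiate.

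Values below are normalized counts: counts scaled by edgeR's TMM factors to the mean effective library size of the 10 libraries. Differences were tested by edgeR's quasi-likelihood test with the mouse as a block, and a gene was called at a Benjamini-Hochberg adjusted p under 0.05 over all 13941 genes tested. All 7 Hedgehog genes passed the low-count filter. Mouse 1 stood apart: both its gonads had the lowest value of their group for Dhh, Hhip, Ptch1 and Gli1, the GPI gonad far from the other 4, so results are also given without mouse 1.

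Of the 7 genes, 3 were called, against 22.9% of all genes tested. Dhh and Hhip were higher with GPI and Gli1 was lower, where 11.1% of all tested genes were called higher and 11.9% lower. The median log2 fold change was 0.10 over the 7 genes and 0.02 over all tested genes. For 0 of the 7 were the vehicle and GPI libraries fully separate, which was the case for 16.1% of all tested genes. The difference had the same direction in all 5 mice for 4 of the 7, Dhh, Hhip, Gli1 and Gli2, against 30.5% of all tested genes.

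**Figure D1:**
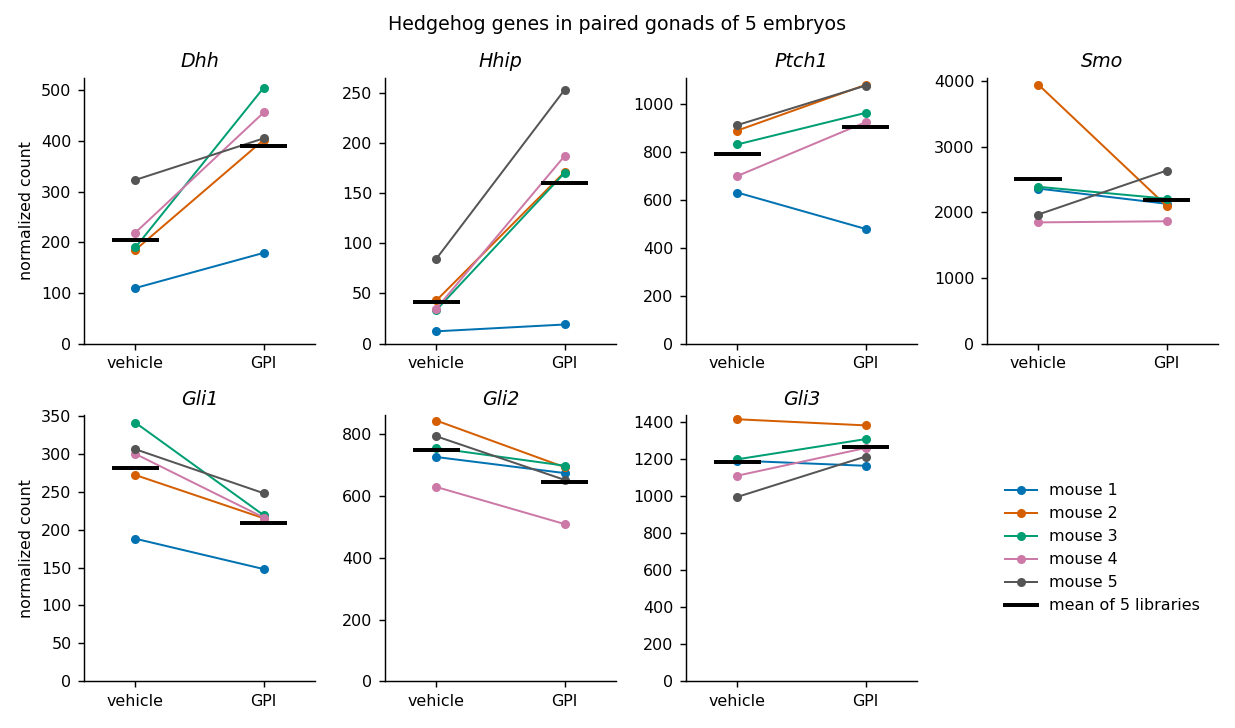
Normalized count of each Hedgehog gene (vertical axes, starting at 0) in the vehicle and GPI gonads of 5 mice; a line joins the gonads of 1 mouse and black bars are means of 5 libraries. Dhh and Hhip were higher with GPI in 5 of 5 mice, Gli1 and Gli2 were lower in 5 of 5, and the GPI gonad of mouse 1 was the lowest GPI library for Dhh, Hhip, Ptch1 and Gli1.

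Dhh (Entrez 13363, chr15:98891155-98898540 of mm10, minus strand) encodes the ligand. Its normalized counts were 109.6, 185.0, 189.8, 219.0 and 323.0 in the vehicle gonads of mice 1 to 5 and 179.0, 402, 505.0, 456 and 405 in their GPI gonads. The GPI gonads of mice 2 to 5 were all above the highest vehicle gonad, that of mouse 5, while the GPI gonad of mouse 1 lay inside the vehicle range. The mean was 205 ± 77.2 with vehicle and 389 ± 125 with GPI (SD, n = 5). The log2 fold change was 0.92 (SE 0.15), with a Benjamini-Hochberg adjusted p of 0.000425 by edgeR's quasi-likelihood test. Without mouse 1 it was 0.95, and Dhh was called under each of 13 alternative settings. Within mice the log2 difference was widest in mouse 3, at 1.40, and narrowest in mouse 5, at 0.33, whose vehicle gonad held the most Dhh. In RNA of whole gonads, fewer cells of a type and less RNA per cell cannot be told apart, nor can more cells and more RNA per cell.

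Sertoli cells are the main source of Dhh in the testis. Of 12 Sertoli markers tested, 8 were called higher, 0 lower and 4 not called, with a median log2 fold change of 0.57, and the most abundant was Aard, with 28.3% of the list's counts. The 12 markers summed to 4715, 6800.5, 5246, 6434 and 6909 normalized counts in the vehicle gonads of mice 1 to 5 and to 5273, 9268, 9509.7, 12136 and 9196 in the GPI gonads. Mouse 1 again had a GPI value inside the vehicle range, and the other 4 GPI gonads were above every vehicle gonad. Among the markers, Sox8, a transcription factor of Sertoli cells, had a log2 fold change of 1.43 and Mro one of 0.89, while Amh, anti-Müllerian hormone (0.08), Cldn11 (0.21), Cst9 (-0.19) and Fgf9 (-0.33) were not called. Aard, at 0.54, lost its call without mouse 3 (0.43, adjusted p = 0.0502) and with no replicate block (0.62, adjusted p = 0.0929), both by edgeR with Benjamini-Hochberg adjustment, and its adjusted p over the 13 alternatives ran from 9.43e-05 to 0.0929.

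Dhh was therefore also set against the summed Sertoli markers in each library. The difference in log2 ratio between the GPI and the vehicle gonad was 0.55, 0.67, 0.55, 0.14 and -0.09 in mice 1 to 5. It was above 0 in 4 of 5 mice and below 0 in mouse 5, with a mean of 0.37 ± 0.32 (SD, n = 5), and 0.32 without mouse 1. As a description with no test, this mean was smaller than the log2 fold change of Dhh itself, 0.92, and its SD was nearly as large as the mean. What part the Sertoli cell markers had in the rise of Dhh was not tested.

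Endothelial and Schwann cells are further known sources of Dhh in the body. All 8 endothelial markers were called lower, with a median log2 fold change of -3.23. Cdh5, VE-cadherin, carried 37.1% of their counts over both treatments together. Its mean was the highest of the list with vehicle (2827 normalized counts), but with GPI Kdr (282) was above Cdh5 (232). The endothelial sum was 7391, 7771, 6990.3, 8143 and 7253 normalized counts in the vehicle gonads of mice 1 to 5 and 816, 986, 670.4, 541 and 727 in the GPI gonads. Every GPI gonad was below every vehicle gonad in endothelial marker RNA, and the part of endothelial cells in the Dhh values was not tested. Of 7 Schwann cell markers, 5 were tested and Erbb3 alone was called (0.75, higher), a call lost without mouse 2 (0.73), 3 (0.60), 4 (0.70) or 5 (0.68) and with total counts only (0.70). The Schwann list summed to 388, 429.6, 336, 420.3 and 376 in the vehicle gonads and 316, 515, 369.9, 563 and 481 in the GPI gonads, and Foxd3 had 0 counts in all 10 libraries. Those groups overlapped.

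**Figure D2:**
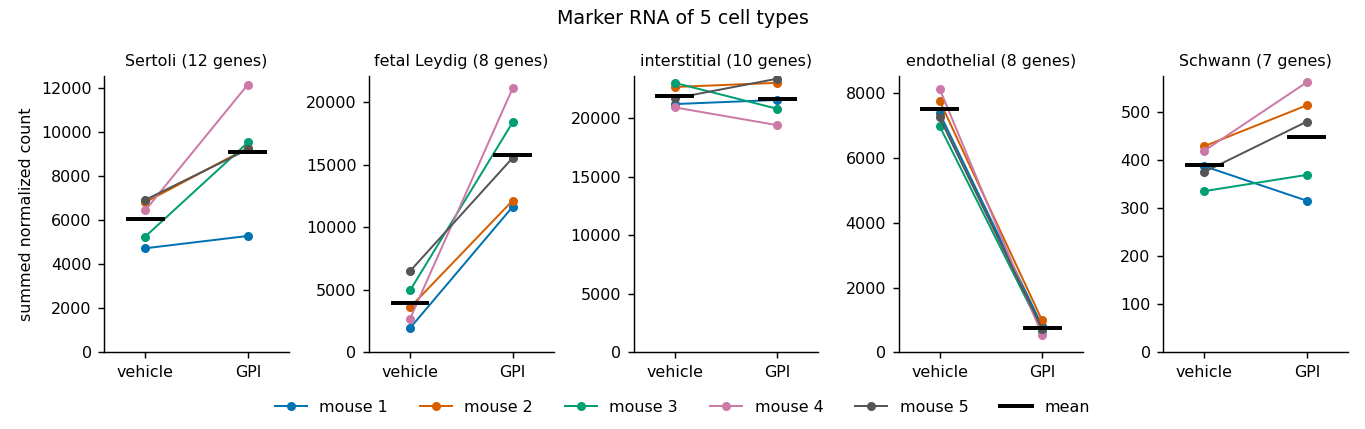
Summed normalized counts of 5 lists of cell type markers (vertical axes, starting at 0) in the vehicle and GPI gonads of 5 mice; lines join gonads of 1 mouse and black bars are means. Sertoli and fetal Leydig sums were higher with GPI in 5 of 5 mice, endothelial sums were lower in 5 of 5, and interstitial sums overlapped.

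Hhip (Entrez 15245, chr8:79965851-80058008, minus strand) encodes a membrane protein that binds Hedgehog ligands and keeps them from patched. Its normalized counts were 12.2, 43.0, 33.5, 34.9 and 84.6 in the vehicle gonads of mice 1 to 5 and 19.0, 171, 170.2, 187 and 253 in the GPI gonads. The GPI gonads of mice 2 to 5 were all above the vehicle maximum, and mouse 1 was the lowest in both groups. The mean was 41.6 ± 26.6 with vehicle and 160.1 ± 85.8 with GPI (SD, n = 5). The log2 fold change was 1.91 (SE 0.23, a fold of 3.76), with a Benjamini-Hochberg adjusted p of 4.04e-05 by edgeR's quasi-likelihood test. It was 2.03 without mouse 1, and Hhip was called under each of the 13 alternatives. The raw counts behind these values were low, 11 to 111 with vehicle and 17 to 232 with GPI.

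Ptch1 (Entrez 19206, chr13:63511533-63565520, minus strand) encodes the receptor. Its normalized counts were 631.0, 890.2, 832.0, 700.2 and 913.0 in the vehicle gonads of mice 1 to 5 and 479.0, 1081, 964.0, 925 and 1078 in the GPI gonads. As with Hhip, the GPI gonads of mice 2 to 5 were above every vehicle gonad, but that of mouse 1 was below every vehicle gonad. The log2 fold change was 0.15 (SE 0.11, 95% interval -0.08 to 0.38) and Ptch1 was not called, with a Benjamini-Hochberg adjusted p of 0.349 by edgeR's quasi-likelihood test. Without mouse 1 it was called higher: 0.27, with an adjusted p of 0.0421 by the same edgeR test and adjustment, the lowest of a range that reached 0.683 over its 13 alternatives. The log2 difference within mice was -0.40 in mouse 1 and between 0.21 and 0.40 in mice 2 to 5. Whether Ptch1 was called thus depended on mouse 1.

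Smo (Entrez 319757, chr6:29735497-29761366, plus strand) encodes the transducer that patched holds in check. Its normalized counts were 2365.0, 3952.0, 2392.0, 1849.0 and 1969.0 in the vehicle gonads of mice 1 to 5 and 2133.0, 2101, 2211.0, 1866 and 2639 in the GPI gonads. The vehicle gonad of mouse 2 was the highest, and the other 9 libraries lay between 1849.0 and 2639. Smo was not called (log2 fold change -0.15, 95% interval -0.44 to 0.15), with a Benjamini-Hochberg adjusted p of 0.498 by edgeR's quasi-likelihood test. Without mouse 2 the sign turned, to 0.04.

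Gli1 (Entrez 14632, chr10:127329882-127341579, minus strand) encodes the transcriptional activator whose own expression follows the pathway. Its normalized counts were 188.0, 272.0, 341.0, 299.8 and 306.0 in the vehicle gonads of mice 1 to 5 and 148.0, 215, 219.0, 216 and 248 in the GPI gonads. All 5 GPI gonads were below the vehicle gonads of mice 2 to 5, and they overlapped with the vehicle group through its lowest library, that of mouse 1. The mean was 281 ± 57.5 with vehicle and 209 ± 37.0 with GPI (SD, n = 5). The log2 fold change was -0.42 (SE 0.11), lower in 5 of 5 mice, with a Benjamini-Hochberg adjusted p of 0.0152 by edgeR's quasi-likelihood test. It was -0.46 without mouse 1. The call was lost without mouse 3 (-0.38, adjusted p = 0.0739), without mouse 4 (-0.41, adjusted p = 0.0611), with no replicate block (-0.43, adjusted p = 0.0702) and with the trend on GC content and length removed (-0.29, adjusted p = 0.0781), while the adjusted p over all 13 alternatives, by edgeR, DESeq2 or limma-voom, ran from 0.00915 to 0.0781. The 3' end of Gli1 overlaps Arhgap9 on the opposite strand (chr10:127321964-127329943), and counting without strand cannot separate their reads there. Arhgap9 had few counts, 10.6 ± 10.3 normalized with vehicle and 6.58 ± 4.19 with GPI (SD, n = 5).

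Gli2 (Entrez 14633, chr1:118834061-119053619, minus strand), the main activator among the GLI factors, had 726.0, 844.0, 755.0, 629.0 and 793.0 normalized counts in the vehicle gonads of mice 1 to 5 and 674.0, 693, 698.0, 509 and 652 in the GPI gonads. Each GPI gonad was below the vehicle gonad of its own mouse, and the groups overlapped. The log2 fold change was -0.22 (95% interval -0.40 to -0.04) and Gli2 was not called, with a Benjamini-Hochberg adjusted p of 0.0754 by edgeR's quasi-likelihood test. It was called lower with total counts only (-0.27), and was -0.05 with the trend on GC content and length removed. Mir6346 lies inside the Gli2 span on the opposite strand (chr1:118954220-118954300) and had 20.3 ± 18.3 normalized counts with vehicle and 20.2 ± 6.96 with GPI (SD, n = 5).

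Gli3 (Entrez 14634, chr13:15463723-15730026, plus strand), whose product is cut into the pathway's main repressor when the signal is off, varied from 995 to 1414 normalized counts with vehicle and from 1163 to 1381 with GPI. It was higher with GPI in 3 of 5 mice and was not called (log2 fold change 0.10, 95% interval -0.06 to 0.27), with a Benjamini-Hochberg adjusted p of 0.386 by edgeR's quasi-likelihood test.

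**Figure D3:**
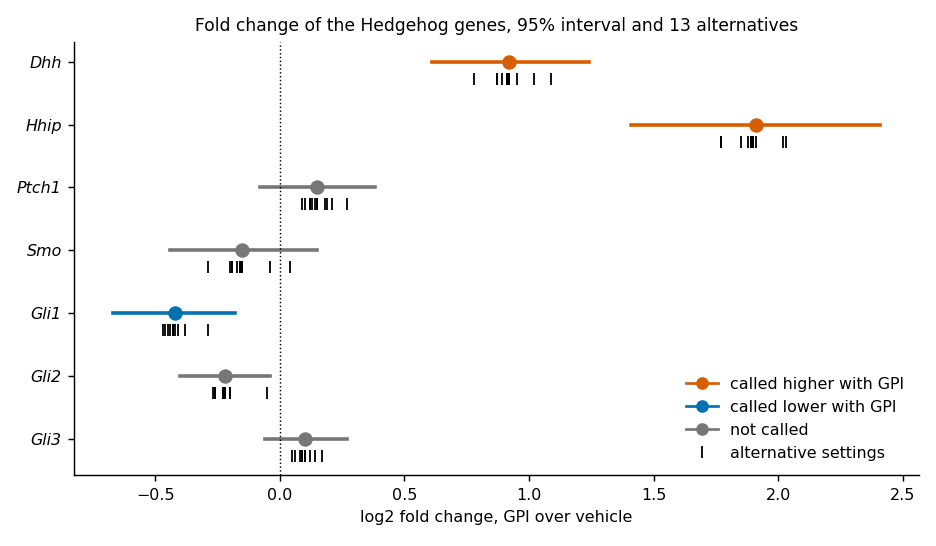
Log2 fold change of GPI over vehicle (horizontal axis) for each Hedgehog gene, with the 95% interval of the edgeR fit as a bar and the values under 13 alternative settings as ticks below it. The intervals of Dhh, Hhip, Gli1 and Gli2 lie to one side of 0, but Gli2 was not called after adjustment, and 1 tick of Smo crosses 0.

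Levels were compared between genes per kilobase of the gene's longest GENCODE M21 transcript that carries a RefSeq identifier. The longest of all its transcripts was to be used where none carries one. In vehicle gonads the order of mean levels was Smo (663 ± 223 normalized counts per kb), Gli3 (145 ± 18.8), Gli2 (113 ± 12.1), Ptch1 (103 ± 15.9), Gli1 (69.4 ± 14.2), Dhh (48.4 ± 18.2) and Hhip (4.59 ± 2.93; SD, n = 5). Smo was above Gli3 and Dhh was above Hhip in ranges that did not overlap, whereas each other neighbouring pair in that order overlapped. With GPI the order was Smo (579.5 ± 74.6 per kb), Gli3 (155 ± 10.3), Ptch1 (117 ± 32.1), Gli2 (97.2 ± 11.8), Dhh (91.8 ± 29.4), Gli1 (51.5 ± 9.12) and Hhip (17.6 ± 9.46; SD, n = 5). Dhh had thus moved above Gli1, with overlapping ranges. Neighbours without overlap were Smo and Gli3, Gli3 and Ptch1, and Gli1 and Hhip.

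Ptch1, Gli1 and Hhip are read out mainly in interstitial cells, so they were set against 10 markers of interstitial progenitors. Of these markers, 2 were called higher, Pdgfra (0.33) and Maf (0.49), and 3 lower, among them Pdgfrb (-1.55) and Tcf21 (-0.30), with a median log2 fold change of -0.10. The list summed to 21195, 22653, 23005, 20909.8 and 21689.6 normalized counts in the vehicle gonads of mice 1 to 5 and 21549.5, 23009, 20789, 19392 and 23362 in the GPI gonads, Pdgfra holding 28.8% of it. The groups overlapped in this sum. Relative to it, the log2 ratio of Gli1 differed between the gonads of a mouse by -0.37, -0.36, -0.49, -0.37 and -0.41 (mean -0.40 ± 0.05, SD, n = 5), and that of Hhip by 0.62, 1.97, 2.49, 2.53 and 1.47 (mean 1.82 ± 0.80). The ratio of Gli1 was lower and that of Hhip higher in each of the 5 mice, so that 2 targets of the same pathway went opposite ways against the same marker RNA. For Ptch1 the difference was -0.42 in mouse 1 and 0.13 to 0.51 in mice 2 to 5 (mean 0.17 ± 0.36). Without mouse 1 the means were 0.31 for Ptch1, -0.41 for Gli1 and 2.12 for Hhip. With each mouse left out in turn, the Ptch1 mean ran from 0.08 (without mouse 4) to 0.31, shifts smaller than its SD of 0.36. The choice of markers moved Gli1 by more than its SD of 0.05. Gli1 was at -0.26 without Pdgfra and at -0.25 with the mean of log2 markers in place of their sum. Under the same changes Ptch1 was at 0.31 and 0.32, shifts smaller than its SD.

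**Figure D4:**
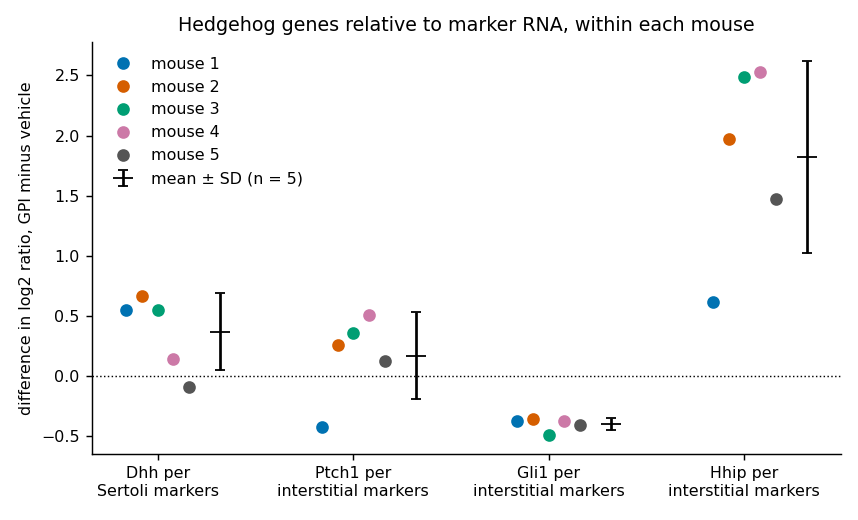
Difference between the GPI and the vehicle gonad of each mouse in the log2 ratio (vertical axis) of Dhh to summed Sertoli markers and of Ptch1, Gli1 and Hhip to summed interstitial markers; points are mice, bars are mean ± SD (n = 5). The Gli1 points lie within -0.49 to -0.36 (their mean moves from -0.40 to -0.26 without Pdgfra), while the Hhip points spread from 0.62 to 2.53.

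Fetal Leydig cells are the interstitial cells whose differentiation Dhh is known to drive. All 7 tested genes of the 8 on the Leydig list were called higher, with a median log2 fold change of 1.75. Among them were Cyp17a1 (3.90), Fdx1 (1.41) and Hsd3b1 (1.75). Hsd3b1 was the most abundant over both treatments together, with 35.5% of the list's counts. With vehicle the mean of Hsd3b1 was above that of Cyp11a1 (1718 against 905 normalized counts), but with GPI below it (5275 against 5868). The list summed to 1936, 3592, 4949, 2681 and 6494 normalized counts in the vehicle gonads of mice 1 to 5 and to 11635, 12134, 18390, 21117 and 15551 in the GPI gonads. Every GPI gonad was above every vehicle gonad, that of mouse 1 included, where Hhip, at 19.0, lay in the vehicle range. Of 7 smooth muscle and myoid markers, 5 were tested and 0 called (0 at an unadjusted p under 0.05 in edgeR, 0 by DESeq2, 0 by limma-voom), with a median of -0.12. Des, at -0.43, depended on the mice: it was called lower without mouse 2 (-0.65) and was at -0.19 without mouse 4. The part of these markers in the values of Hhip and Gli1 was not tested.

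Dhh and Hhip, which rose together, and Ptch1 are shown with the 250 bases before their RefSeq transcription start (GRCm38.p6, the assembly of mm10), as the ligand and 2 of the genes known to respond to it. RefSeq promoters were matched for 6 of the 7 genes. All 3 windows are on the minus strand and written 5' to 3', at chr15:98898541-98898790 for Dhh, chr8:80058009-80058258 for Hhip and chr13:63565736-63565985 for Ptch1, whose RefSeq start differs from that of the deposited gene model. Capitals mark GC boxes, GGGCGG or CCGCCC on the other strand.
Dhh: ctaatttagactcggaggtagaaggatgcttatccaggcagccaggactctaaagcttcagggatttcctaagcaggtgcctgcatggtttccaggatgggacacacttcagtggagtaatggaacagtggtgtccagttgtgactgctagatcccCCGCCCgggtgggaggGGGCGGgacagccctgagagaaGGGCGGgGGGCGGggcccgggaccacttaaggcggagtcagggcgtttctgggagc
Hhip: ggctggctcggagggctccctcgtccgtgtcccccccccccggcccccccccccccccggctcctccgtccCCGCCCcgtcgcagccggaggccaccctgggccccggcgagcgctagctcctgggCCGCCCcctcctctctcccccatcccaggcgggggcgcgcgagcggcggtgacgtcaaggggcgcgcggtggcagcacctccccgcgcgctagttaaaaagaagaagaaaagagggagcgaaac
Ptch1: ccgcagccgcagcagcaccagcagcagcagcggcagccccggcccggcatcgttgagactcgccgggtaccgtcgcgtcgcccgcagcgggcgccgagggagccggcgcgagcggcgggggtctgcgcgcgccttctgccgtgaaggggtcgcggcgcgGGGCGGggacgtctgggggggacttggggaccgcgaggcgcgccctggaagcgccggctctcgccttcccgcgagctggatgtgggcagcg
The Dhh window held 4 GC boxes, Hhip 2 and Ptch1 1, and its GC content was 59.6%, 76% and 78.4%. Of the matched windows not shown, that of Gli3 held 2 GC boxes, Gli2 1 and Smo 0. Among 32851 mouse promoters of the same length, 32.7% held a GC box on either strand. The consensus GLI site GACCACCCA, or TGGGTGGTC on the other strand, was in 0 of the 6 windows and in 74 of the 32851 promoters (0.225%). That says only that these letters are not in these windows.

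Of 55 other genes of the pathway in 5 lists, 50 were tested, and 4 were called higher and 8 lower, with a median log2 fold change of -0.06. These 12 of 50 calls are a share close to the 22.9% called among all genes tested, so the count itself is no result about the pathway, and the calls below are those of single genes. Neither of the other Hedgehog ligands was tested: Shh had 0 to 15 raw counts in a vehicle library and 0 to 1 in a GPI library, and Ihh had 0 to 2 and 0 to 3, against 99 to 424 and 160 to 531 for Dhh. Of 5 tested genes for ligand acylation and release, 2 were called lower, Scube2 (-0.67) and Scube3 (-0.91), whose products help secreted ligand leave the cell. Scube2 was the less firm of these, its call being lost without mouse 1 (-0.72), 2 (-0.45), 3 (-0.65) or 4 (-0.67), by limma-voom (-0.63) and with the trend on GC content and length removed (-0.61). Scube3 lost its call without mouse 3 (-0.78).

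Of the co-receptors that help ligand bind patched, Cdon was called higher and Boc lower, while Gas1 (-0.07) was not called. Nor were 2 other proteins of the cell surface that bind Hedgehog ligands, the endocytic receptor Lrp2 (-0.12) and the glypican Gpc3 (0.03), which competes with patched for ligand. Cdon had 1498 ± 253 normalized counts with vehicle and 2448 ± 128 with GPI (SD, n = 5), a log2 fold change of 0.72 (SE 0.08) with a Benjamini-Hochberg adjusted p of 2.33e-05 by edgeR's quasi-likelihood test. Boc had 439 ± 60.2 and 292 ± 36.7 (SD, n = 5), a log2 fold change of -0.59 (SE 0.11) with an adjusted p of 0.00167 by the same edgeR test and adjustment. For both, the vehicle and GPI libraries did not overlap, each kept its direction in 5 of 5 mice, and each was called under all 13 alternatives.

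Downstream of smoothened, 0 of 16 genes that control the GLI proteins, such as Sufu, Kif7 and the subunits of protein kinase A, were called by edgeR (0 at an unadjusted p under 0.05, 0 by DESeq2, 0 by limma-voom), with a median log2 fold change of -0.06. Of 13 cilium genes, Tulp3 (0.44) and Ttc21b (0.53) were called higher and Kif3a (-0.27) lower, and the list's median was 0.09. Of 13 other genes reported as targets of Hedgehog signaling in various tissues, 10 were tested. Osr2 was called higher (1.08), and Foxc2 (-2.51), Foxl1 (-1.99), Ccnd1 (-1.20) and Bcl2 (-0.56) lower, with a list median of -0.18. Foxl1 lost its call without mouse 4 (-1.68). Foxc2 and Foxl1 were scarce, with 47.0 ± 12.2 and 35.2 ± 21.1 normalized counts with vehicle and 8.35 ± 3.74 and 7.92 ± 4.14 with GPI (SD, n = 5). Foxc2 is also expressed by endothelial cells, whose markers were lower with GPI, and their part in its lower value was not tested.

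**Figure D5:**
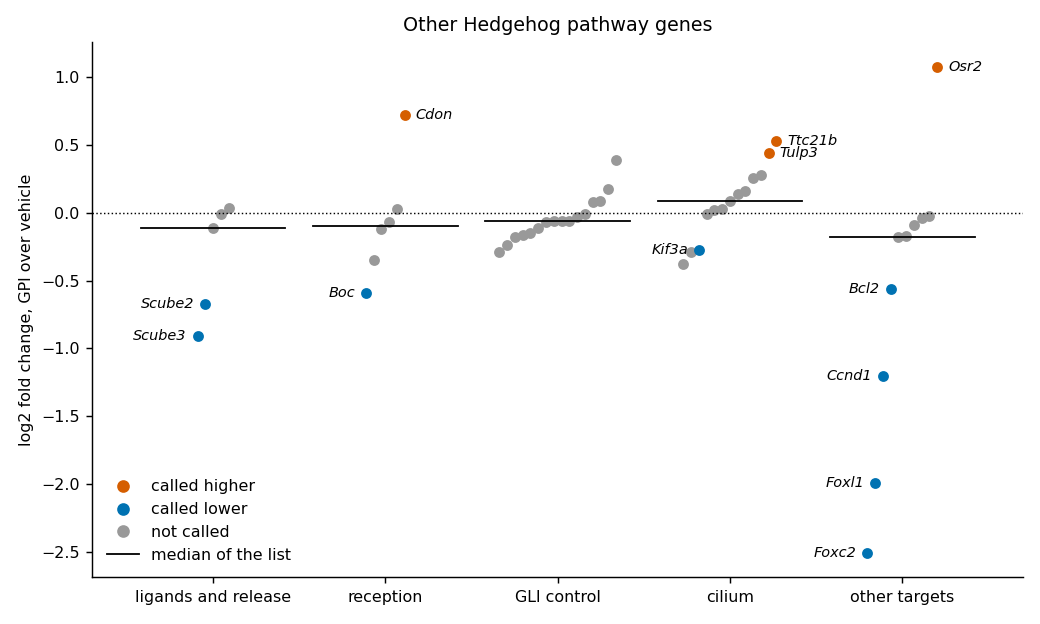
Log2 fold change of GPI over vehicle (vertical axis) of the 50 tested pathway genes other than the 7, by list; points are genes, colours mark calls by edgeR and black lines are list medians. The medians lie between -0.18 and 0.09, and no gene of the GLI control list was called.

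The genes whose log2 normalized counts followed each Hedgehog gene most closely over the 10 libraries were found among 11096 tested genes averaging 50 or more counts per library, as a description without a test, since treatment and depth are shared by all genes of a library. Dhh was followed by Adhfe1 (Pearson r 0.985), Hs3st3b1 (0.975) and Camkk2 (0.965), and Hhip by genes that included Fdps (0.973) and Camkk2 (0.971). Camkk2 thus followed both, and these 4 named genes were called higher with GPI, by 0.40 (Camkk2) to 0.99 (Fdps) on the log2 scale. Ptch1 was followed by Cplx2 (0.952), 4930579H20Rik (0.950) and Snapc5 (0.947), and Smo by Tab2 (0.972), 6820431F20Rik (0.967) and Trim28 (0.950). Gli1 was followed by Hoxd10 (0.944), Prim2 (0.938) and Ddx21 (0.931), Gli2 by Emsy (0.971), Tomm34 (0.966) and Rsbn1 (0.949), and Gli3 by Mark3 (0.915), Agfg2 (0.903) and Zfp362 (0.893). Of these 15 genes, Hoxd10 alone was called (-0.38, lower).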

How the data were processed

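The authors mapped reads to mm10 with STAR 2.5 and counted them per gene with featureCounts (Subread 1.5.0-p1), without strand, and the deposited values are raw counts for 24470 entries; 0 rows lacked a gene name and 0 other columns of sample values were found. Counts were used as deposited. Genes were filtered by filterByExpr (minimum count 10, minimum total 15), leaving 13941, and fitted with edgeR 4.0.16 (R 4.3.3), TMM factors (0.9511 to 1.039) and terms for mouse and treatment. A standard error is the size of the log2 fold change over the square root of F. Log2 differences of single genes within mice, and correlations, used a prior count of 2; log2 ratios to summed markers used none. Precision comes from the spread between mice, since amplified reads are not independent molecules. Libraries of a treatment differed beyond sampling noise (chi-square per degree of freedom 6.42 to 27.81), so none was a duplicate.

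Pairing comes from the animal given in the labels. Deviations from the treatment mean correlated by -0.0398 to 0.155 within a mouse (mean 0.06) and by -0.0147 on average between mice, and 2 of 5 vehicle libraries were closest to the GPI library of their own mouse.

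GENCODE M21 gave transcript length and GC content for 13303 (95.42%) of the tested genes. Genes, gene lists (5 of the pathway, 11 of cell types) and tests were chosen with earlier results of these data known. A list's most abundant gene, and its share of the list's counts, were taken over both treatments together. Genes named singly were the 7, Shh and Ihh, called pathway genes (at most 6 a list), each cell type list's most abundant gene and the 2 with the smallest p, genes overlapping the 7, and the 3 genes most correlated with each; other genes named were chosen after their values were seen, and some genes of the rule are not reported here. Alternatives were DESeq2 1.42.0, limma-voom (limma 3.58.1), no replicate block, size factors of DESeq2 in edgeR, scaling by total counts only, a filter of 10 counts in every library, no filter, a loess trend (span 0.5) on GC content and length removed with the block kept, each mouse left out, and other marker weights. The fit was tested on simulated counts. Other steps used pandas 2.3.3 and numpy 2.4.6 in Python 3.11.15, with figures from matplotlib 3.10.9.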

Additional observations from a re-analysis of the deposited data

Results flagged for a closer look

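In 53 sets of 5 values (each gene in each treatment, its differences within mice, and each list's sum), 7 values lay far from the other 4 of their set; chance alone marks about 1 set in 20. On the log2 scale of normalized counts, 4 of them were in the GPI gonad of mouse 1, each the lowest of 5: Dhh at 7.50, Ptch1 at 8.91, Gli1 at 7.23 and Hhip at 4.39. Another was the difference within mouse 1 for Ptch1, -0.40, where the other mice were above 0. The vehicle gonad of mouse 1 was also the lowest of its group for these 4 genes, though not far from the others by the same measure. These sets share a mouse and are not independent. In the GPI gonad of mouse 4, Gli2 at 9.00 and the summed smooth muscle and myoid markers at 10.76 were the lowest of 5. Causes were not tested.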

How the results depend on the processing

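Dhh (0.78 to 1.09) and Hhip (1.77 to 2.03) were called under all 13 alternatives, and Gli3 (0.05 to 0.17) under none of them. With no replicate block, in place of pairing by mouse, Gli1 was -0.43 and no longer called, so 0 of the 7 were called lower; over all genes, 2922 calls were shared with the paired fit, and no other of the 7 genes changed its call. Gli1 was also not called with the GC content and length trend removed (-0.29, again 0 called lower), and with total counts only Gli2 was called at -0.27 (2 called lower). Leaving out each mouse moved Ptch1 between 0.09 and 0.27, Smo between -0.29 and 0.04, Gli1 between -0.46 and -0.38, Gli2 between -0.26 and -0.20, the number of the 7 called lower between 0 and 1, and all genes called higher between 969 (without mouse 3; 1024 without mouse 4) and 1430. Gli1 against interstitial markers was -0.26 without Pdgfra and -0.25 with the mean of log2 markers. Of called genes, 48.3% were higher in the paired TMM fit, 38.6% with total counts only and 56.5% (1903 genes) with the GC content and length trend removed. Fewer mice tested is the construction of the leave-one-out fits; otherwise the cause was not tested. Hhip, Arhgap9, Foxc2 and Foxl1 have few counts, which limits their precision.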

Other observations

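Other cell types of the gonad were read from marker lists as well. Of 10 germ cell markers, 6 were tested and 5 were called lower, with a median log2 fold change of -4.76. Among those called were Dazl (-4.62) and Dppa3 (-5.20). Dazl was the most abundant over both treatments together and with vehicle (mean 580.2 normalized counts). With GPI the mean of Ddx4 (37.7) was above that of Dazl (25.1). Of 6 macrophage markers, 5 were tested and 4 called lower (median -2.22), with Mrc1 (-0.90) the most abundant and Csf1r (-2.22) and C1qa (-3.78) further examples. All 5 erythroid markers were called lower (median -1.59), among them Hbb-y (-0.98), the most abundant, and Hbb-bt (-3.84). Among markers of the coelomic epithelium, 5 of 6 were tested and Upk1b alone was called (0.68, higher; not called without mouse 3, 0.65), with a median of -0.02. Of 6 mesonephros markers only Pax8 was tested and it was not called (-0.28; 0 of the list at an unadjusted p under 0.05 in edgeR, 0 called by DESeq2 and 0 by limma-voom).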
